A study of Mus musculus with 59 samples.

Results

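Fluoxetine was compared with vehicle in the prefrontal cortex of male mice heterozygous for Naa15, as 9 of the 59 libraries of the series. All 9 animals were C57BL/6J, carried the HT (heterozygous) label and were male. The 5 fluoxetine libraries came from pups given the drug through maternal milk from postnatal day 3 to day 24 (3 weeks), and the 4 vehicle libraries from pups labelled vehicle. All were taken at postnatal day 25. Wild-type (WT) males (5 fluoxetine and 5 vehicle libraries) and HT females (5 and 5) of the same strain, age and schedule serve as comparisons. The remaining libraries also entered the fit and its error: WT females (5 fluoxetine and 5 vehicle) and lithium-treated males and females of both genotypes (5 each). The kind of Naa15 allele, the dose, the litters and any pooling are not given in the sources used here. The p-values therefore measure the spread between samples, estimated over the 12 groups of all 59 libraries. Animals that shared a mother cannot be told from others. The whole table was used: every gene with a normalised count of at least 10 in at least 4 of the 59 libraries entered the test, 17891 genes in all.

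Fluoxetine blocks the serotonin transporter and raises serotonin around neurons, and it passes into milk. The cortex of a mouse at weaning is still forming synapses, myelin and vessels. Glucocorticoid hormones from the adrenal enter the brain and act through nuclear receptors that bind DNA, and Fkbp5, Hif3a and Map3k6 are among the genes known to rise with them in brain tissue. Cells sense membrane cholesterol through SCAP and INSIG proteins, which hold or release the SREBP factors that switch on cholesterol synthesis. The unfolded protein response adds chaperones to the endoplasmic reticulum when folding load rises, and Xbp1 encodes 1 of its main transcription factors. NatA is the enzyme that adds an acetyl group to the first residue of many new proteins, and Naa15 anchors its catalytic subunit to the ribosome.

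The normalised count of Naa15 (ENSMUSG00000063273, chr3:51415148-51476507, plus strand, GRCm38) was 1855, 1614, 1523, 1541 and 1581 in the fluoxetine HT males and 1569, 1512, 1612 and 1509.8 in the vehicle HT males. It was 1550.2 ± 47.3 (SD, n = 5) in fluoxetine WT males and 1592 ± 80.1 (SD, n = 5) in vehicle WT males. The gene-level count of Naa15 did not set HT libraries apart from WT libraries, so it does not check the genotype labels. Its change with fluoxetine in HT males was 0.06 ± 0.0603 on the log2 scale (limma, adjusted p = 0.815). Xist and 4 summed Y-linked genes separated the 30 female from the 29 male libraries as labelled, and the tissue markers of cortex were high in all 9 libraries (Slc17a7, the vesicular glutamate transporter of excitatory neurons, between 48305 and 59599).

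Depth ran from 25.2 to 32.6 M recovered reads over the 9 libraries. Mitochondrial genes took 5.66% to 6.38% of the deposited counts with fluoxetine and 5.45% to 7.39% with vehicle. One library of each group stood apart in tissue content. The 12 striatal markers summed to 9887, 33718, 9623, 10664 and 10007 in fluoxetine replicates 1 to 5 and to 9829.8, 10416, 34882 and 9589 in vehicle replicates 1 to 4, so fluoxetine replicate 2 and vehicle replicate 3 were the high ones. The 16 oligodendrocyte and myelin markers summed to 148509, 199008, 89800.0, 147206 and 75276 with fluoxetine and 55125, 108420.4, 227851 and 57306 with vehicle, and the same libraries were the highest of their groups. Results are therefore also given without these 2 libraries. In bulk tissue, fewer cells of a type and less RNA per cell cannot be told apart.

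In HT males 29 genes changed with fluoxetine, 17 higher and 12 lower, which is 0.162% of the genes tested (0.095% higher and 0.0671% lower). A call is an adjusted p under 0.05 in limma on log2 of the value plus 1, with 12 group means (genotype, sex and fluoxetine, lithium or vehicle) fitted to all 59 libraries and Benjamini-Hochberg adjustment over the 17891 genes. At an unadjusted p under 0.05 there were 1544 genes (8.63%), of which 736 were higher (4.11%) and 808 lower (4.52%). The called changes ran from 0.16 to 2.28 in size on the log2 scale, with a median of 0.36, and the median change of all genes was -0.001. Of the called genes, 8 of the 17 higher and 11 of the 12 lower stood at or above the median level of the tested genes, a normalised count of 420.5. In 28 of the 29 genes all fluoxetine libraries lay on one side of all vehicle libraries. Over all genes this held for 264 above (1.48%) and 311 below (1.74%).

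The number of calls rested on which libraries were in the fit. Without HT vehicle male replicate 4 no gene passed (smallest adjusted p = 0.0613 in limma, 1393 genes at an unadjusted p under 0.05), and with only the 9 libraries in the fit none passed either (smallest adjusted p = 0.14, 1472 genes at an unadjusted p under 0.05). Leaving out fluoxetine replicate 1, 2, 3, 4 or 5 left 10 higher and 2 lower, 8 and 4, 8 and 4, 9 and 11, and 13 and 7. Leaving out vehicle replicate 1, 2 or 3 left 9 and 2, 21 and 9, and 11 and 3. Without both libraries high in striatal markers, 3 genes passed (Fkbp5, Cys1 and Lao1, adjusted p = 0.0442 each) with 1327 at an unadjusted p under 0.05. None of the 29 genes changed its direction under any of these settings. Of the 9 fits that each left out 1 HT male library, Dcun1d5 and Nkd1 were called in 8, Fkbp5, Hif3a, Map3k6, Cys1 and Gm11827 in 7, Xbp1 in 6 and Vgll4 in 5. Enox1, Hnrnpab, Lao1, Insig1 and Cox11 were called in 4 of them, Eng, Ptbp1, Slc6a6, Csrnp2 and Scand1 in 3, and Notch3, Mvd, Emc1, Sox13, Atp10a and Gm19439 in 2. Hnrnpa0, Mtx2 and Ncan were called in 1 of the 9 fits and Mrfap1 in 0.

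**Figure D1:**
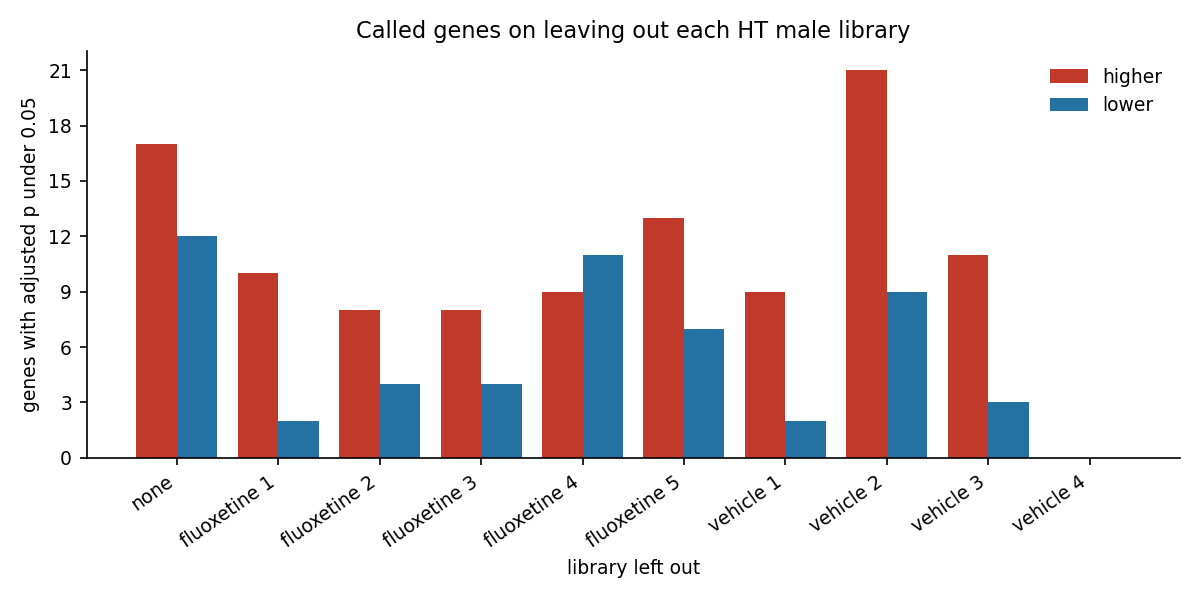
Number of genes with adjusted p under 0.05 (vertical axis) in HT males, higher (red) or lower (blue) with fluoxetine, with all libraries and with each HT male library left out (horizontal axis, by treatment and replicate). The count was 17 and 12 with all libraries, ran from 0 to 21 higher and 0 to 11 lower, and was 0 in both directions without vehicle replicate 4.

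**Figure D2:**
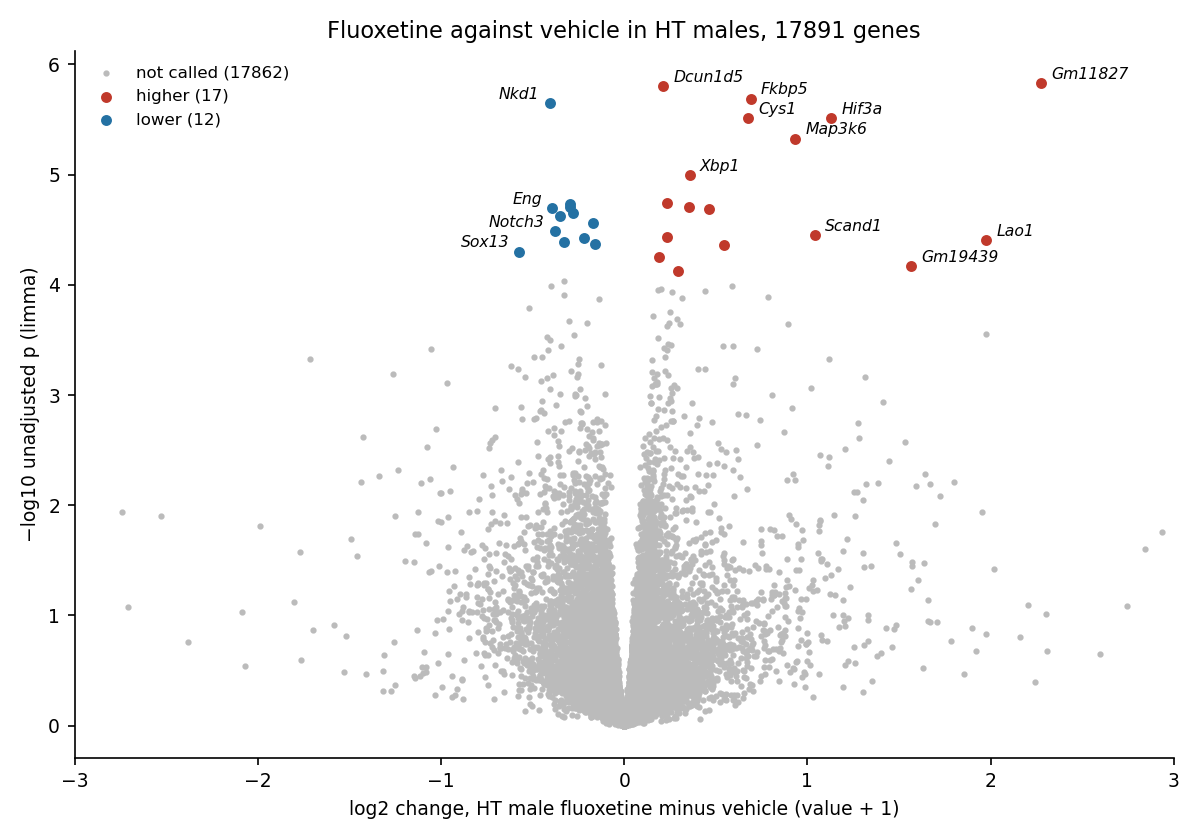
Log2 change (horizontal axis, fluoxetine minus vehicle in HT males) against −log10 of the unadjusted limma p (vertical axis) for each tested gene, with the 17 genes higher in red and the 12 lower in blue. The axis ends at 3 in each direction and 7 genes lie outside it. Fkbp5, Hif3a, Map3k6 and Nkd1 stand near the top with Dcun1d5, Cys1 and Gm11827, and Lao1, Gm19439 and Gm11827 reach the highest changes of the called genes.

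Promoters of 6 called genes are shown because these genes carry the glucocorticoid, cholesterol and unfolded protein results below. They are RefSeq sequences (GRCm38.p6) of 300 bases, 250 before the start base and 50 from it on, read 5′ to 3′ in lower case. Capitals mark the letters CCAAT (or its complement ATTGG) and the E-box CACGTG.
Fkbp5 (chr17:28486100-28486399, minus strand): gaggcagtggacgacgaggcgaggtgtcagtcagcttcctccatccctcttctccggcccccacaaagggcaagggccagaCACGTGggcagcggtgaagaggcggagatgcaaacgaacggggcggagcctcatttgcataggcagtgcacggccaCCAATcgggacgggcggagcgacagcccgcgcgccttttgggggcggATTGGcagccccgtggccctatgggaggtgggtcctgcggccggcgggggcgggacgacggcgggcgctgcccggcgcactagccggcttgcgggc
Hif3a (chr7:17062378-17062677, minus strand): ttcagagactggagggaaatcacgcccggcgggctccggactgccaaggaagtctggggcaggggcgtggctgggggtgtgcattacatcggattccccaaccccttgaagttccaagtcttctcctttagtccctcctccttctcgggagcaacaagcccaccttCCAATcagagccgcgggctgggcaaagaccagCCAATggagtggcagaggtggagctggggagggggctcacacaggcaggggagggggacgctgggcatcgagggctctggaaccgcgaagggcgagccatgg
Map3k6 (chr4:133240568-133240867, plus strand): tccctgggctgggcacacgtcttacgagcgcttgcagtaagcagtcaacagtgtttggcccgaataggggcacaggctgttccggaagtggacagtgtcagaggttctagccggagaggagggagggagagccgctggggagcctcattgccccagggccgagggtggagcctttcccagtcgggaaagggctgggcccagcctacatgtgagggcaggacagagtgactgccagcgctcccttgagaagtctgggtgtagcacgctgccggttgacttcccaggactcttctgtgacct
Insig1 (chr5:28071162-28071461, plus strand): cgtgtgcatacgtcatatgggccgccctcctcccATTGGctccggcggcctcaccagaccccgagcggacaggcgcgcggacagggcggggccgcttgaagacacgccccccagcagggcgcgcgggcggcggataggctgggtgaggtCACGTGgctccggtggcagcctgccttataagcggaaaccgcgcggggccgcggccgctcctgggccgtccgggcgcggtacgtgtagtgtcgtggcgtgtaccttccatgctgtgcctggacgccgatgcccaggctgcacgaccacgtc
Mvd (chr8:122443373-122443672, minus strand): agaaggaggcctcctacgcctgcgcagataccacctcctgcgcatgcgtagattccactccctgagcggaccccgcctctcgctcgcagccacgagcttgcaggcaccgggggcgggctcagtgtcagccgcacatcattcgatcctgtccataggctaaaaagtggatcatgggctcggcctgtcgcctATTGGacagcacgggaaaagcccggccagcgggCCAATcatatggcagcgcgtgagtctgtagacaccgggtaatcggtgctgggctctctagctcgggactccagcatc
Xbp1 (chr11:5520391-5520690, plus strand): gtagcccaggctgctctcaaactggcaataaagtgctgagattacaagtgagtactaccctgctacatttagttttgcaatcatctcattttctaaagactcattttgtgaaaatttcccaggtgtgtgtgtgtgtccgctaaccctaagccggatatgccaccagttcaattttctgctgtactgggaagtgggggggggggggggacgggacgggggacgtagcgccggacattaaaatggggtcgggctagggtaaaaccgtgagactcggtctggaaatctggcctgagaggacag

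Sequence motifs were searched on both strands in 27 promoters of 26 of the 29 called genes; Gm11827, Gm19439 and Slc6a6 had none in the table. The Fkbp5 promoter held CCAAT at 93 and, on the other strand, at 46 bases before the start base, and an E-box at 169 bases before it. Hif3a held CCAAT at 84 and 52 bases before the start base, Mvd at 27 and, on the other strand, 60, and Insig1 at 216 on the other strand with an E-box at 101. The windows of Map3k6 and Xbp1 held neither. CCAAT occurred in 11 of the 27 promoters and in 37.4% of the 32851 promoters in the table, and the E-box in 4 of 27 and 7.15%. The glucocorticoid half-site AGAACA occurred in 1 of 27 (the second promoter of Dcun1d5) and 19% of all. The full element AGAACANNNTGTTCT (0.00913% of all), the classical sterol regulatory element (0.0913%), the cAMP response element TGACGTCA (1.79%), the TCF/LEF letters ATCAAAG (3.73%) and the ER stress element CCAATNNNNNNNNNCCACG (0.119%) occurred in none of the 27. The ER stress element holds CCAAT, so the 2 searches overlap.

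Among 24 glucocorticoid response genes, Fkbp5, a co-chaperone that lowers the hormone sensitivity of the glucocorticoid receptor, Hif3a, a member of the hypoxia-inducible factor family, and Map3k6, a stress-activated kinase, rose. These 3 were called, none was called lower, and 8 higher and 2 lower members had an unadjusted p under 0.05. Of all genes 0.095% were called higher, and 4.11% were higher and 4.52% lower at an unadjusted p under 0.05. The median change of the list was 0.16, against -0.001 for all genes, and 0.21 without the 2 libraries high in striatal markers. This list and those below were chosen with earlier results of these data known, so their counts and medians are descriptions.

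Fkbp5 (ENSMUSG00000024222, chr17:28399094-28517527, minus strand) had normalised counts of 1266, 1137, 1458, 1256 and 1345 with fluoxetine and 702, 963, 808 and 742 with vehicle. All 5 fluoxetine libraries lay above all 4 vehicle libraries. The change was 0.69 ± 0.129 (SE) on the log2 scale, a 1.61-fold rise (adjusted p = 0.00916).

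Hif3a (ENSMUSG00000004328, chr7:17031507-17062427, minus strand) stood at 322, 272, 379, 347 and 393 with fluoxetine and 189, 208, 109.5 and 132 with vehicle. The groups did not overlap, and the lowest fluoxetine library was replicate 2. The change was 1.13 ± 0.216 (adjusted p = 0.00916), a 2.19-fold rise. Map3k6 (ENSMUSG00000028862, chr4:133240818-133252929, plus strand) stood at 129.7, 121, 155, 157 and 174 with fluoxetine and 73.8, 109, 65 and 63.1 with vehicle. Its highest vehicle library, replicate 2, lay just under its lowest fluoxetine library. The change was 0.93 ± 0.183 (adjusted p = 0.012).

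Klf9, a transcription factor that glucocorticoids and thyroid hormone are known to induce, did not pass (adjusted p = 0.0579). Its counts were 8262, 7954, 7967, 8002 and 7145 with fluoxetine and 6030.3, 7559.6, 6305 and 6413 with vehicle, a difference of 0.26 ± 0.0628. The groups overlapped through fluoxetine replicate 5 and vehicle replicate 2. The other members ran from -0.48 (Dusp1) to 1.28 (Plin4), and the receptor gene itself, Nr3c1, differed by -0.16 (adjusted p = 0.531).

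Of 16 hypoxia response genes 1 was higher and 1 lower at an unadjusted p under 0.05, against 4.11% and 4.52% of all genes. Their median was 0.01. Hif3a was also the 1 called member of this list, against 0.162% of all genes called. Adm, a vasodilator peptide, Epas1, an oxygen-sensed factor of vessels and glia, and Ndrg1, a stress-induced gene with high levels in myelinating cells, followed it in p and differed by -0.39, -0.14 and 0.31 (adjusted p = 0.568, 0.603 and 0.653).

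**Figure D3:**
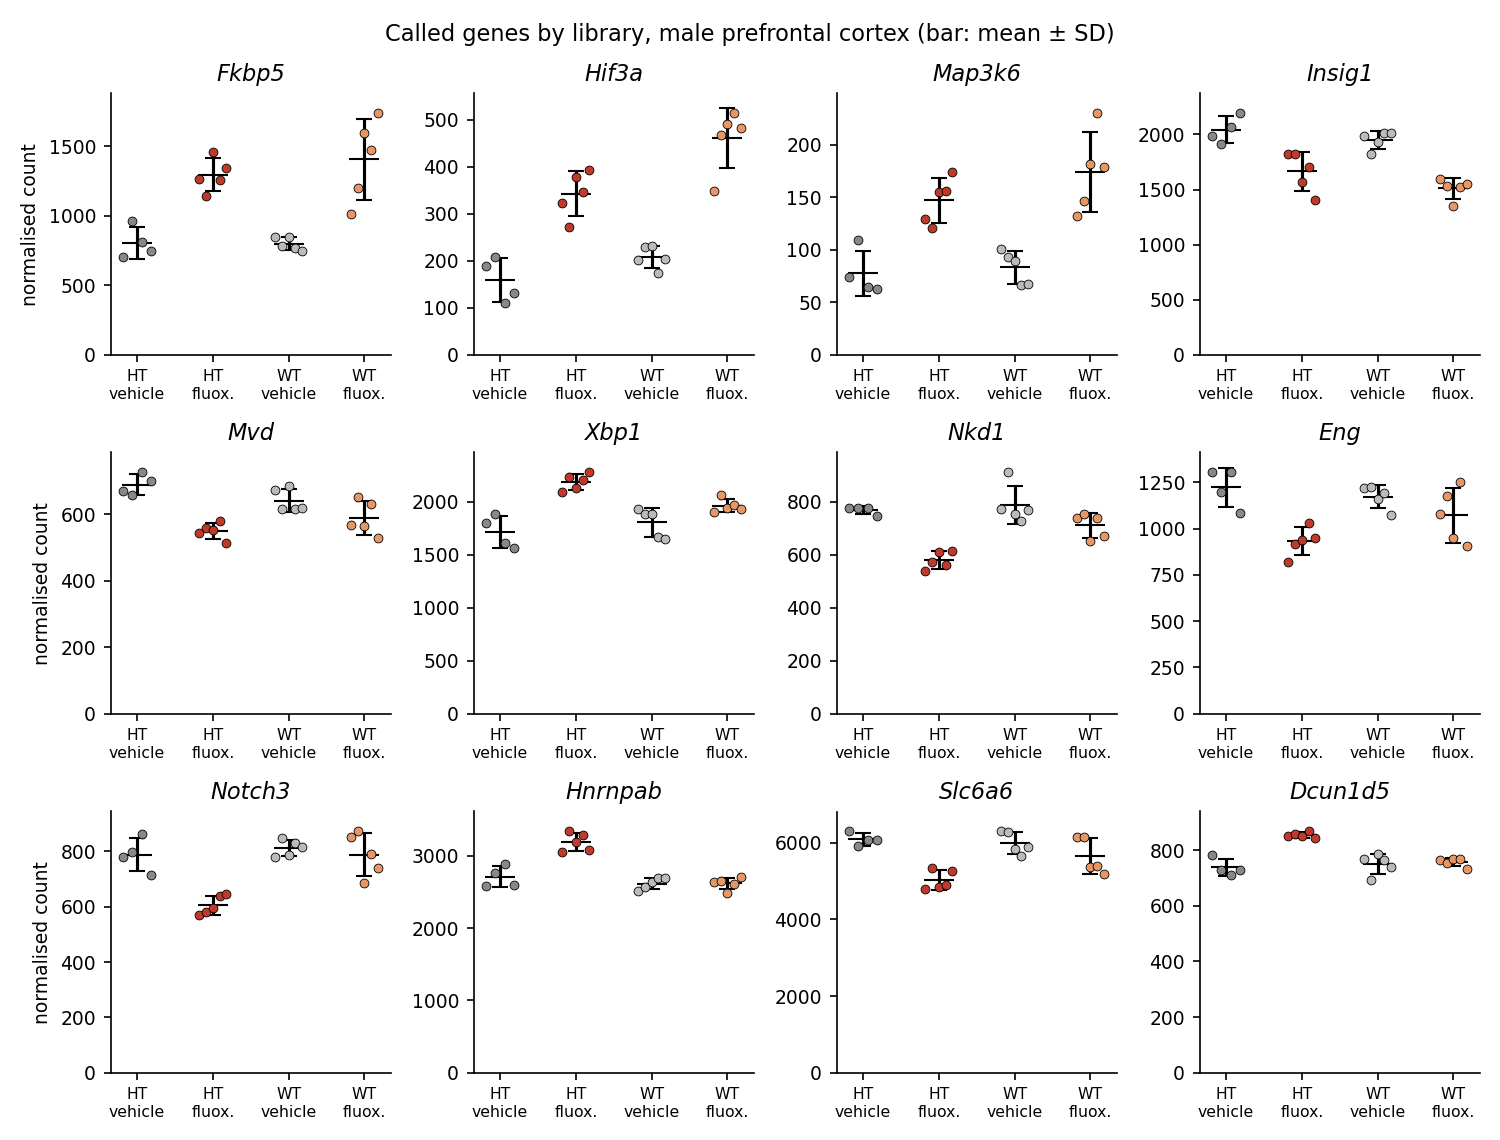
Normalised counts (vertical axes, starting at 0) of 12 called genes in each library of the HT and WT male groups, with the mean and SD. In HT males the groups do not overlap for any of the 12. Fkbp5, Hif3a, Map3k6 and Insig1 are separated in WT males too, and Hnrnpab and Dcun1d5 overlap there.

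In cholesterol synthesis and uptake Insig1 and Mvd fell. These were 2 of 26 members, against 0.0671% of all genes called lower, and none was called higher. At an unadjusted p under 0.05, 12 were lower and 0 higher, against 4.52% and 4.11% of all genes. In 6 members all fluoxetine libraries lay below all vehicle libraries, against 1.74% of all genes. Of 26 differences 24 were negative, and the median was -0.13 (-0.17 without the 2 libraries high in striatal markers). Insig1, the sterol-sensing anchor of SCAP and itself a SREBP target, had counts of 1822, 1826, 1568, 1707 and 1409 with fluoxetine and 1987, 1911, 2072 and 2196 with vehicle. The highest fluoxetine library stayed below the lowest vehicle library. The change was -0.30 ± 0.0631 on the log2 scale (adjusted p = 0.0263; ENSMUSG00000045294, chr5:28071363-28078662, plus strand).

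Mvd, mevalonate diphosphate decarboxylase, which makes the isoprene unit of cholesterol, had counts of 542, 558, 552, 579.5 and 512 with fluoxetine and 669, 657, 727 and 700.2 with vehicle. The groups did not overlap, and the change was -0.33 ± 0.0728 (adjusted p = 0.0308; ENSMUSG00000006517, chr8:122433601-122443422, minus strand). Mvk, which phosphorylates mevalonate earlier in the pathway, stood at 506, 465, 496, 523 and 515 and 570.2, 610.4, 615 and 585, also without overlap, and its difference of -0.25 ± 0.0665 did not pass (adjusted p = 0.119). Dhcr7, which makes the last reduction of cholesterol synthesis, differed by -0.24 ± 0.0748 (adjusted p = 0.213), and its groups overlapped.

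In the unfolded protein response Xbp1 rose. It was the 1 called gene of 23 members, against 0.162% of all genes called. At an unadjusted p under 0.05, 12 members were higher and 1 lower, against 4.11% and 4.52% of all genes. In 7 members all fluoxetine libraries lay above all vehicle libraries, against 1.48% of all genes. The median was 0.16, and 0.14 without the 2 libraries high in striatal markers. Xbp1 (ENSMUSG00000020484, chr11:5520659-5525893, plus strand) had counts of 2098, 2232, 2134, 2208 and 2284 with fluoxetine and 1806, 1882, 1612 and 1562 with vehicle. The fluoxetine libraries sat close together, and all were above the vehicle libraries. The change was 0.36 ± 0.0728 (adjusted p = 0.0228). Counts per gene do not tell its spliced form from the unspliced one.

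Chaperones and folding enzymes followed in p. Hspa5, the main Hsp70 of the endoplasmic reticulum, stood at 7568, 8625, 7682, 7572 and 8054 with fluoxetine and 5751, 7041, 5980.3 and 5743 with vehicle. The lowest fluoxetine library was above the highest vehicle library, and the difference was 0.37 ± 0.108 (adjusted p = 0.171). Dnajc3, an Hspa5 co-chaperone, differed by 0.23 ± 0.0593 (adjusted p = 0.0845) and Pdia3, a disulphide isomerase, by 0.19 ± 0.0552 (adjusted p = 0.163), both without overlap. The summed counts of all 23 members were 74202, 76034, 72228, 72501 and 71288 with fluoxetine and 64299, 69882, 65105 and 65391 with vehicle, so the sums did not overlap either. Sums of the 14 dividing cell markers, a list with a median change of -0.004, did not overlap. Those of the cholesterol and the glucocorticoid lists overlapped. The member with a lower value at an unadjusted p under 0.05 was Edem1, which takes misfolded proteins out (-0.15).

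**Figure D4:**
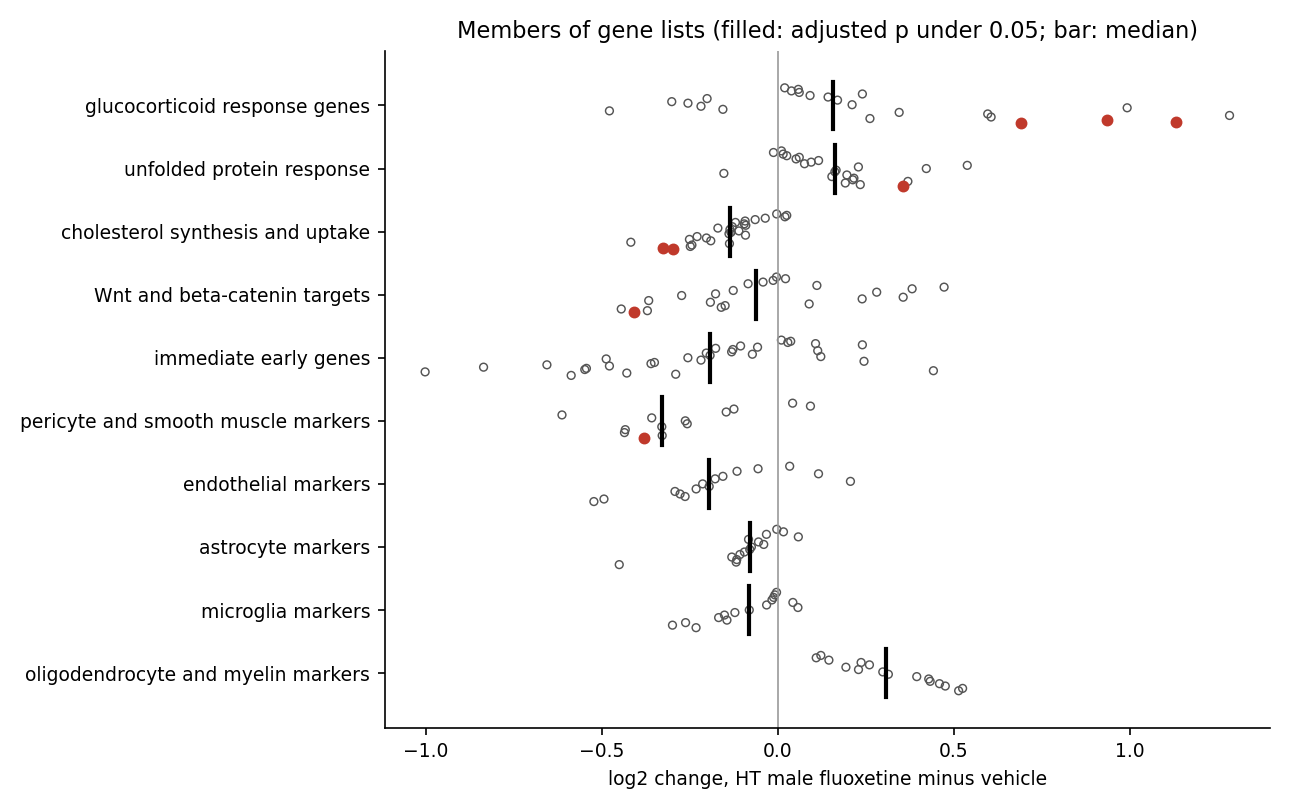
Log2 change in HT males (horizontal axis, fluoxetine minus vehicle) of each member (points) of 10 gene lists (vertical axis), filled where the adjusted p was under 0.05, with the list median as a bar. Medians are 0.16 for the glucocorticoid and the unfolded protein lists, -0.13 for cholesterol, -0.33 for pericyte and smooth muscle markers and 0.31 for oligodendrocyte markers, none of whose 16 members is filled.

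Among Wnt and beta-catenin targets, Nkd1, which feeds back on Dishevelled to damp the pathway, fell. Its counts were 539, 574, 611, 559.7 and 615 with fluoxetine and 777, 777, 775 and 744 with vehicle. The vehicle libraries were tightly placed, with replicate 4 a little lower, and every fluoxetine library lay below them. The change was -0.41 ± 0.0765 (adjusted p = 0.00916; ENSMUSG00000031661, chr8:88521354-88594884, plus strand). Of the 22 members 1 was called, against 0.162% of all genes, and the median was -0.06. At an unadjusted p under 0.05, 1 was higher and 7 lower, against 4.11% and 4.52% of all genes.

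Apcdd1, a membrane inhibitor of Wnt signalling, Lef1, a partner of beta-catenin on DNA, and Axin2, the scaffold used as a readout of the pathway, did not pass. Apcdd1 stood at 1526, 1502, 1826, 1762 and 1927 and 2345, 2058, 2212 and 2188, a difference of -0.37 ± 0.108 (adjusted p = 0.177). Lef1 stood at 160.1, 155, 147, 132 and 161 and 219, 217, 199 and 188, a difference of -0.44 ± 0.151 (adjusted p = 0.304). Neither of these overlapped between groups, while Axin2 did, at -0.16 ± 0.0606 (adjusted p = 0.384). Apcdd1 and Lef1 are also expressed by brain endothelial cells, whose markers are given next.

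Among vascular genes Notch3 and Eng fell. Of 13 pericyte and smooth muscle markers 1 was called lower (Notch3), against 0.0671% of all genes, and none was called higher. At an unadjusted p under 0.05, 8 were lower and 0 higher, against 4.52% and 4.11% of all genes. Of the 13 differences 11 were negative and 2 positive, from -0.61 to 0.09. The median was -0.33 (-0.36 to -0.26 on leaving out each library, -0.26 without the 2 libraries high in striatal markers). Notch3, the receptor that mural cells need, had counts of 568, 583, 595, 637 and 644 with fluoxetine and 779.7, 799, 862 and 714 with vehicle. The groups did not overlap, and the change was -0.38 ± 0.0832 (adjusted p = 0.0308; ENSMUSG00000038146, chr17:32120820-32166852, minus strand). Pdgfrb, the receptor that recruits pericytes to vessels, stood at 766, 800.2, 785, 841 and 772 and 1008, 941, 1062 and 975, again without overlap. Its difference was -0.33 ± 0.0774 (adjusted p = 0.0547).

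The contractile genes of smooth muscle, Myh11 and Acta2, differed by -0.44 ± 0.157 and -0.43 ± 0.162 (adjusted p = 0.347 and 0.372). The 13 markers summed to 8826, 7748, 8541, 7924 and 8747 with fluoxetine and 11257, 9548, 10374 and 10346 with vehicle. Every fluoxetine sum was below every vehicle sum. No member was at 0 in all 9 libraries.

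Eng, endoglin, a co-receptor for TGF-beta and BMP ligands on endothelial cells, was at 822, 915, 937, 1033 and 952 with fluoxetine and 1307, 1198, 1306 and 1083 with vehicle, and the groups did not overlap. The change was -0.39 ± 0.0835 (adjusted p = 0.0263; ENSMUSG00000026814, chr2:32646595-32682669, plus strand). Of 15 endothelial markers none was called. At an unadjusted p under 0.05, 6 were lower and 0 higher, against 4.52% and 4.11% of all genes. In 4 the fluoxetine libraries lay wholly below the vehicle libraries, against 1.74% of all genes. The median was -0.19 (also -0.19 without the 2 libraries high in striatal markers). Of the 15 differences 12 were negative and 3 positive, from -0.52 to 0.21. Kdr, the VEGF receptor, and Cldn5, the tight junction claudin, chosen after their values were seen, differed by -0.52 ± 0.128 and -0.49 ± 0.132 (adjusted p = 0.0715 and 0.119). The 15 markers summed to 15932, 15072, 16505, 15753 and 16298 with fluoxetine and 18450.3, 17148, 17483 and 15909.5 with vehicle, and these sums overlapped through vehicle replicate 4.

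No marker of the other cell types was called. None of the 16 oligodendrocyte and myelin markers reached an unadjusted p under 0.05, against 8.63% of all genes. All 16 differences were positive, with a median of 0.31. This median ran from 0.07 to 0.71 on leaving out each library and was 0.59 without the 2 libraries high in striatal markers. The 15 astrocyte markers had a median of -0.08, the 15 microglia markers -0.08 and the 14 meningeal and fibroblast markers -0.17. Of the microglia markers 4 were lower at an unadjusted p under 0.05, against 4.52% of all genes. Whether differences in cell content between the dissections took part in the changes of Notch3 and Eng was not tested. Excitatory and interneuron markers had medians of -0.02 and 0.03, with 0 called.

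The list closest to the drug's target, 17 genes of the serotonin system (receptors, synthesis, transport and breakdown), held no called gene. None of the 17 had an unadjusted p under 0.05 either, with differences from -0.16 to 0.53. Over all genes 0.162% were called and 8.63% had an unadjusted p under 0.05, and 0 of 17 is close to both shares. The 31 immediate early genes, which neuronal activity switches on within minutes, held no called gene. At an unadjusted p under 0.05, 9 were lower and 1 higher, against 4.52% and 4.11% of all genes. Their median was -0.19, which ran from -0.29 to -0.09 on leaving out each library and was -0.07 without the 2 libraries high in striatal markers. Differences of members ran from -1.002 (Egr2) to 0.44 (Maff), and the summed counts of the list overlapped between the groups.

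Hnrnpab and Hnrnpa0, which bind RNA, rose, and Ptbp1 fell. Hnrnpab, an RNA-binding protein of mRNA transport, stood at 3055, 3345, 3185, 3281 and 3075 with fluoxetine and 2584, 2768, 2888 and 2603 with vehicle, without overlap. It rose by 0.23 ± 0.0496 (adjusted p = 0.0263). Its relative Hnrnpa0 rose by 0.29 ± 0.0681 (adjusted p = 0.0459, called in 1 of the 9 fits with a library left out), while Ptbp1, the splicing repressor that neurons lose as they mature, changed by -0.29 ± 0.0624 (adjusted p = 0.0263). Ptbp1 was at 719, 915, 808, 830.1 and 875 with fluoxetine and 1011, 1049.9, 1049.6 and 948 with vehicle.

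Dcun1d5, a cofactor that attaches NEDD8 to cullins, rose. Its counts were 850.2, 858, 850.2, 869 and 844 with fluoxetine and 782, 728, 711 and 729 with vehicle, without overlap, and the change was 0.21 ± 0.0392 (adjusted p = 0.00916). Mtx2, a mitochondrial import protein, rose by 0.19 ± 0.0429 (adjusted p = 0.0374) and Mrfap1 by 0.23 ± 0.0517 (adjusted p = 0.0308), calls that held in 1 and 0 of the 9 fits with a library left out. Enox1, a cell-surface oxidase, rose by 0.46 ± 0.0985 (adjusted p = 0.0263). Dcun1d5 and Mtx2 were among the 6 called genes that no longer passed after the trend of each library on GC content and length was removed, with Vgll4, Csrnp2, Emc1 and Ncan. Their values were then 0.18 and 0.17 (adjusted p = 0.116 and 0.151 in limma), and with the library slopes on GC content and length as covariates all 29 genes passed, these at 0.19 and 0.17 (adjusted p = 0.00278 and 0.0223).

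Genes at low levels had the highest fold changes and the fewest reads. Gm11827, a long noncoding RNA, stood at 8.11, 7.91, 10, 8.92 and 7.25 with fluoxetine and 5.95, 1.04, 0 and 0 with vehicle. It rose by 2.28 ± 0.418 on the log2 scale of the value plus 1 (adjusted p = 0.00916). With 5 in place of 1 as the added constant the change of Gm11827 was 1.07 (adjusted p = 0.0329), and in edgeR on recovered reads it did not pass (adjusted p = 0.0689). Lao1, an L-amino acid oxidase, stood at 14.2, 6.92, 21, 5.94 and 20.7 and 0, 8.33, 5.57 and 1.05, was the called gene whose groups overlapped, and rose by 1.98 ± 0.44 (adjusted p = 0.0308). Lao1 did not pass with the constant 5 (1.12, adjusted p = 0.109) or in edgeR (adjusted p = 0.158), and DESeq2 gave no adjusted p for Gm11827 or Lao1. Gm19439, a gene model of unsettled type, rose by 1.57 ± 0.361 (adjusted p = 0.0431). It did not pass in limma with the constant 5 (1.43, adjusted p = 0.0577) or in edgeR (adjusted p = 0.114). In DESeq2 Gm19439 passed (adjusted p = 0.0244).

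Scand1, a SCAN-domain protein, Cys1, a protein of primary cilia, Atp10a, a lipid flippase, and Cox11, an assembly factor of cytochrome c oxidase, were chosen after their values were seen because they completed the called genes. Scand1 stood at 375, 497, 565, 600.3 and 493 with fluoxetine and 244, 286, 324 and 152 with vehicle. Cys1 stood at 209, 188, 271, 215 and 222 with fluoxetine and 132, 180.2, 141 and 105 with vehicle. Neither gene overlapped between the groups, and they rose by 1.04 ± 0.23 and 0.67 ± 0.129 (adjusted p = 0.0308 and 0.00916). Atp10a rose by 0.55 ± 0.122 (adjusted p = 0.0308) and Cox11 by 0.35 ± 0.0753 (adjusted p = 0.0263).

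Sox13, Vgll4 and Slc6a6 fell. Sox13, a SOX-family factor, was at 172, 255, 245, 239 and 274 with fluoxetine and 376, 305, 423 and 304 with vehicle, and changed by -0.57 ± 0.129 (adjusted p = 0.0344). Vgll4, a TEAD cofactor that opposes YAP, was at 629, 555, 665, 665 and 644 and 851, 702, 766 and 918, and changed by -0.35 ± 0.0759 (adjusted p = 0.0266). Both kept their groups apart. Slc6a6, the taurine transporter, was at 4788, 5349.9, 4842, 4899 and 5247 with fluoxetine and 6297, 5900.4, 6057 and 6080.1 with vehicle, again apart, and changed by -0.28 ± 0.0593 (adjusted p = 0.0263).

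Csrnp2, a nuclear protein, Emc1, a subunit of the complex that inserts membrane proteins, and Ncan, the brain proteoglycan neurocan (chosen after its values were seen), changed by -0.22 ± 0.0482, -0.17 ± 0.0373 and -0.16 ± 0.0359 (adjusted p = 0.0308, 0.029 and 0.0308), with the call of Ncan kept in 1 of the 9 fits with a library left out. Reads of Hnrnpab, Eng, Notch3, Ptbp1, Emc1, Cox11 and Scand1 may be shared with a gene that overlaps them in GENCODE M21, since how the counting used strand is not given in the sources used here.

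The changes were next set beside those in WT males, which share no library with the HT males. Choosing the 29 genes by their change in HT males favours larger values there, so counts of smaller changes in WT males are descriptions. Of the 29 genes, 28 had the same sign in WT males, 24 had a smaller change there, and 5 were called there in the same direction. These were Fkbp5, Hif3a, Map3k6, Atp10a and Insig1, which is 17.2% of the 29 and 21.7% of the 23 genes called in WT males, against 0.129% of all genes called there (0.0838% higher and 0.0447% lower). All 23 genes called in WT males had the same sign in HT males. Fkbp5 was at 1404 ± 294 with fluoxetine and 798 ± 48.1 with vehicle in WT males (SD, n = 5 each), a change of 0.79 ± 0.121 (adjusted p = 0.000605). The HT minus WT difference was -0.10 ± 0.177 (unadjusted p = 0.58 in limma).

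Hif3a rose by 1.14 ± 0.203 in WT males and Map3k6 by 1.04 ± 0.172 (adjusted p = 0.00305 and 0.000956), and the HT minus WT differences were -0.01 ± 0.297 and -0.11 ± 0.251. Insig1 changed by -0.37 ± 0.0595 in WT males (adjusted p = 0.000713), with libraries from 1354 to 1596 with fluoxetine and 1821 to 2016 with vehicle, which do not overlap. The difference between the genotypes was 0.07 ± 0.0867. Atp10a rose by 0.64 ± 0.115 in WT males (adjusted p = 0.00342).

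Whether the effect of fluoxetine differed between the genotypes was tested directly. No gene passed over all 17891 (smallest adjusted p = 0.524), with 1016 at an unadjusted p under 0.05 (5.68%), none in edgeR and 1 (Gdf1) in DESeq2. Of the 29 genes, 12 had an unadjusted p under 0.05 for this difference, and in all 12 the HT change was the further from 0. Since the 29 were chosen for their change in HT males, this count is a description. The value of Dcun1d5 in WT males was 0.02 ± 0.0369, with an HT minus WT difference of 0.20 ± 0.0539 (adjusted p = 0.853). That of Hnrnpab was 0.00 ± 0.0468, with a difference of 0.23 ± 0.0682 (adjusted p = 0.853). That of Notch3 was -0.05 ± 0.0785, with a difference of -0.33 ± 0.114 (adjusted p = 0.853).

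**Figure D5:**
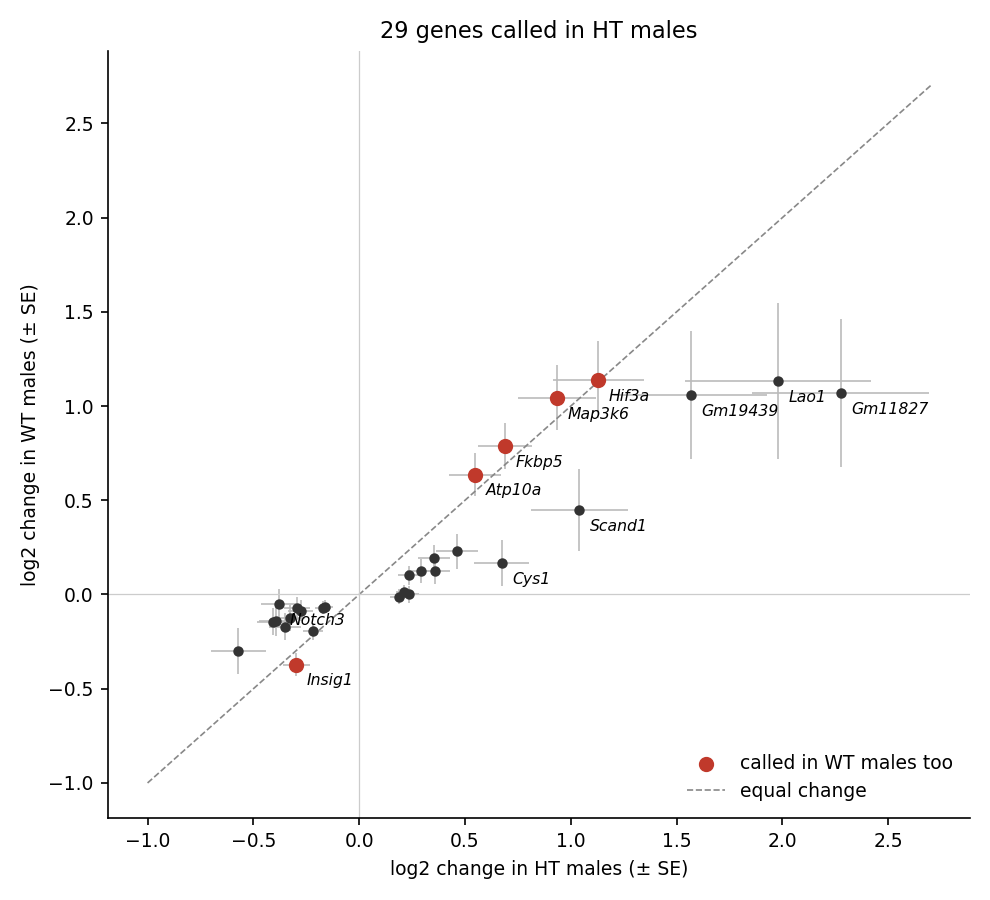
Log2 change with fluoxetine in WT males (vertical axis) against that in HT males (horizontal axis) for the 29 genes called in HT males, with the SE of each as bars, the line of equal change dashed and the 5 genes called in both in red. Fkbp5, Hif3a, Map3k6, Atp10a and Insig1 lie near the line, and 24 of the 29 have a smaller change in WT males. That count is a description, since the 29 were chosen for their change in HT males.

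The other 18 genes called in WT males were not called in HT males, where their differences ran from -0.39 to 0.67. Nr3c1, the glucocorticoid receptor, changed by -0.38 in WT males (adjusted p = 0.00305) and stood at -0.16 in HT males (adjusted p = 0.531), with an unadjusted p of 0.0256 for the difference. Nrros, a microglial regulator of TGF-beta, changed by 0.64 in WT males (adjusted p = 0.00457) and stood at 0.21 in HT males (adjusted p = 0.665), with an unadjusted p of 0.0161. The WT and HT values were -0.37 and -0.25 for Stard4, a cholesterol carrier, and -0.85 and -0.38 for Klf10, a TGF-beta inducible factor. These 4 were chosen after their values were seen, and no difference passed over all genes.

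The medians of the lists in WT males were 0.32 for the glucocorticoid genes (0.16 in HT males), -0.18 for cholesterol (-0.13), 0.08 for the unfolded protein response (0.16), 0.002 for Wnt targets (-0.06), -0.31 for immediate early genes (-0.19), -0.04 for pericyte and smooth muscle markers (-0.33) and 0.01 for endothelial markers (-0.19). No list was tested for a difference. In WT males 0 of the 23 unfolded protein genes had an unadjusted p under 0.05 in either direction, against 7.9% of all genes. For the difference between the genotypes 2 of the 23 had one, against 5.68% of all genes.

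The smallest p-values of the difference between genotypes belonged to genes that were called in neither. Ccdc15, a coiled-coil protein, differed by 1.05 ± 0.228 (adjusted p = 0.524), with 0.59 in HT and -0.45 in WT males. Upf3a, a factor of nonsense-mediated decay, differed by -0.35 ± 0.0792 (adjusted p = 0.524), with -0.12 in HT and 0.23 in WT males. Dnajc15, Gm15459, Gm14326 and Zfp956 followed, at 0.20 ± 0.0523, 3.24 ± 0.863, 0.42 ± 0.112 and -0.26 ± 0.0716 (adjusted p = 0.853 each).

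In HT females all 29 genes had the same sign and 20 were called in the same direction, but 38.3% of all genes were called there (6856; 18.9% higher and 19.5% lower), and 45.4% had an unadjusted p under 0.05. No library is shared between the female and male comparisons. The 5 fluoxetine female libraries stood apart in their profile: their values on the first principal component ran from -28.1 to -16.0, against 2.53 to 26.3 in the HT vehicle females, their own controls, 11.5 to 21.7 in the WT fluoxetine females, 3.998 to 21.3 in the HT fluoxetine males and 17.4 to 24.7 in the HT vehicle males. The 20 lithium libraries of the series lay from -31.6 to -14.9, a range that holds all 5. Their mitochondrial share was 6.91% to 9.03%, against 5.23% to 6.74% in the HT vehicle females. With these 5 libraries out of the fit, 15 genes were higher and 11 lower in HT males. The fluoxetine effect in HT females and this separation cannot be told apart, since all 5 libraries of that group share it. In HT males, fluoxetine replicates 1, 2, 4 and 5 stood at 3.998, 9.2, 15.1 and 14.8 on this component, below every vehicle library. Replicate 3, at 21.3, stood within the vehicle range. Whether this shift took part in the changes of the 29 genes, or in their shared sign in HT females, was not tested. The change in HT males differed from that in HT females for 2716 genes (15.2%; 8.59% with the higher value in males and 6.59% with the lower), and for 216 after each library was corrected for its trend on GC content and length. Among the 29 it differed for 8, which are listed with their values in the closing section. Fkbp5 changed by 0.31 ± 0.121 in HT females (adjusted p = 0.0402), and the difference from males was 0.38 ± 0.177 (adjusted p = 0.141).

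The genes with the smallest p for this difference were not called in HT males. Atp5mpl, a small protein of ATP synthase, changed by 0.55 ± 0.0426 in females and stood at 0.03 ± 0.0452 in males, a difference of -0.53 ± 0.0621 (adjusted p = 4.73e-07). Upf1, the helicase of nonsense-mediated decay, changed by -0.47 ± 0.0405 in females and stood at -0.01 ± 0.0429 in males, a difference of 0.46 ± 0.059 (adjusted p = 1.36e-06). Smarca4, Gprin1, Ttyh3 and Sart1 followed, with differences of 0.36 ± 0.046, 0.52 ± 0.0674, 0.52 ± 0.0678 and 0.47 ± 0.0615 (adjusted p = 1.36e-06 each), all from lower values in fluoxetine females.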

How the data were processed

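Stranded poly(A) RNA libraries were measured in 59 samples, per the labels' protocols. Per the submitters' processing notes the tools were Salmon 0.11.2, R 3.6.0 and DESeq2 1.19.11 with the build GRCm38. The authors deposited a signal per gene, estimated counts divided by a size factor for each library. Whole reads were recovered from the step between values (100% whole within 0.01 read, for values up to 1000 reads), and depths were 24.99 to 32.87 M reads, which limits counting error only. No column was left out. Of 18088 identifiers, 18077 had a GENCODE M21 symbol.

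Genes with a value of at least 10 in at least 4 libraries (17891) were tested with limma 3.58.1 (R 4.3.3, trend, two-sided) on log2(value + 1), with 12 group means (genotype, treatment, sex) and 47 residual degrees of freedom; fold changes are on that scale and understate low genes. Called genes were named by rule: the 10 largest changes each way at or above the median level, the 3 largest below it, 4 members by p of each list with a call, Naa15, and the 6 smallest p of each difference. The members and 36 gene lists were chosen with earlier results of these data known. edgeR 4.0.16 and DESeq2 1.42.0 were alternatives on the recovered reads, beside other scalings, filters, constants, covariates, blocks and left-out libraries; leaving out the 2 libraries high in striatal markers was chosen after the data were seen. In data simulated for this comparison (17891 genes), 68.7%, 94.0% and 100% of genes changed by 0.5, 1 and 1.5 on the log2 scale were recovered, with 6 false calls among 181. The simulated libraries had no differences in tissue content or GC trend, and no change as small as the median called one, 0.36. These rates therefore need not hold for the real libraries. Figures were drawn with Python 3.11.15 and matplotlib 3.10.9.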

Additional observations from a re-analysis of the deposited data

Results flagged for a closer look

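In 122 groups of values tested for a lone library, 5 stood out, where chance alone gives about 5% of groups. The gap of the lone library was 0.820 of the group's range for Mrfap1 (HT fluoxetine male replicate 2, the highest) and 0.928 for Nkd1 (HT vehicle male replicate 4, the lowest). It was 0.725 for Klf9 (HT fluoxetine male replicate 5, the lowest), 0.726 for Naa15 (HT fluoxetine male replicate 1, the highest) and 0.841 for Gm14326 (HT vehicle male replicate 2, the lowest).

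The effect of fluoxetine differed between HT males and HT females by the test of the difference for 2716 genes, among them 8 of the 29 called in HT males. As the male change minus the female change on the log2 scale, it was 1.75 for Gm11827, 0.877 for Scand1, 0.546 for Cys1, 0.519 for Atp10a, 0.287 for Hnrnpa0, 0.360 for Notch3, 0.351 for Ncan and 0.246 for Emc1. The first 5 had the higher change in males, and Notch3, Ncan and Emc1 fell less in males than in females. The slope of a library's deviations on GC content, per 10 points, was -0.236 to -0.0581 in HT fluoxetine females and 0.058 to 0.183 in HT vehicle females. It was -0.00249 to 0.149 in HT fluoxetine males and 0.0739 to 0.191 in HT vehicle males. After removal of the GC and length trend 216 genes differed.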

How the results depend on the processing

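Against 17 higher and 12 lower, the counts for HT males were 35 and 23 with 1 residual principal component, 82 and 34 with each library's slopes added as covariates, 27 and 30 in DESeq2, 12 and 13 in edgeR, and 23 and 9 after removal of the GC and length trend. They were 0 and 0 with only the groups of the contrast, 3 and 0 without the 2 libraries high in striatal markers, and 0 to 21 higher and 0 to 11 lower on leaving out each library. A replicate block was fitted with only the groups of the contrast. By title number the counts were then 0 and 0 (970 genes at an unadjusted p under 0.05), and by library number 0 and 1 (1333). The same groups without a block gave 0 and 0 (1472), which is the count to set beside them. Deviations of same-numbered libraries correlated at -0.0862, -0.0675, -0.296 and -0.0325 by title. By library number these were -0.0862, -0.0675, 0.00239 and 0.0682. So few correlations cannot show whether same-numbered libraries shared more than the number. The difference between HT males and HT females was 216 genes after removal of the GC and length trend and 26 with those covariates, against 2716. It was 1744 genes with the replicate block by title number and 2111 by library number, again with only the groups of the contrast. Those groups without a block also gave fewer than 2716 genes, so the drop from 2716 does not measure the block alone. The difference between HT and WT males was 1 gene in DESeq2 and 1 (Iscu) with those covariates, and 0 otherwise. The causes of these shifts were not tested. All 778 alternative values of the 29 called genes that came with an adjusted p kept their direction.

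No gene was called in all 9 fits that left out an HT male library, 2 (Dcun1d5 and Nkd1) in 8 and 9 in at least 5. Depth limits Gm11827 and Lao1, which had normalised counts of 0 in vehicle libraries. The error of each gene was pooled over the 12 groups.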

Other observations

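Gene groups outside those named above held no called gene in HT males by limma. Of 78 cytosolic ribosomal protein genes 12 were higher and 1 lower at an unadjusted p under 0.05. Their median was 0.04 and ran from -0.01 to 0.12 on leaving out each library. Of 73 nuclear genes of oxidative phosphorylation 8 were higher and 0 lower. The median of these 73 was 0.05 and ran from 0.01 to 0.08 on leaving out each library. Over all genes 4.11% were higher and 4.52% lower at that threshold. The 13 mitochondrially encoded genes had a median of -0.04. The 21 heat shock chaperones had a median of 0.08, with 19 positive values, and the 21 histone genes 0.08, with 18 positive values. The 13 N-terminal acetyltransferase genes, Naa15 among them, ran from -0.13 to 0.18.

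Synaptic genes lay close to 0. Medians were 0.07 for 17 AMPA and NMDA receptor genes, 0.04 for 12 GABA-A receptor genes, -0.04 for 31 postsynaptic scaffold and adhesion genes, -0.03 for 32 presynaptic release genes and 0.03 for 32 potassium channel genes. The 19 clock genes had a median of -0.02, the 15 thyroid hormone response genes 0.01, the 15 MAP kinase feedback genes -0.03 and the 8 neurotrophin and receptor genes 0.03. Markers of tissue next to the cortex were more spread: 16 olfactory bulb and neuroblast markers had a median of 0.27 (0.15 to 0.58 on leaving out each library), 7 red blood cell genes 0.27, 8 choroid plexus markers 0.05, 14 dividing cell markers -0.004 and 11 oligodendrocyte precursor markers 0.08, with 12 striatal markers at -0.08 (-0.47 to 0.45 on leaving out each library).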
